A study of Homo sapiens with 6 samples.

Results

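The 9 genes described here are PLAU, PLAUR, SERPINB2, SERPINA1, F3, THBD, TFPI, F13A1 and FGL2, which act in plasminogen activation and blood coagulation. They were picked by symbol out of the 26485 genes counted, and the choice was made with their values in the comparison below already known. Those values are therefore given as a description, with no test. The RNA came from THP1, an established line of human monocytic leukemia cells, exposed for 6 h to withaferin A (WFA), a steroidal lactone of the plant Withania somnifera, or to its vehicle DMSO. Each treatment was sampled as 3 replicates, numbered by independent experiment, so 6 libraries were compared. The sample labels give the WFA concentration as 1 mM and the study's methods give 1 μM, and which is right cannot be told from the counts.

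Plasminogen activation turns the zymogen plasminogen into plasmin, the protease that dissolves fibrin. Urokinase (PLAU) makes the cut while bound to its receptor on the cell surface (PLAUR), and serpins hold it in check, among them PAI-2 (SERPINB2) and protease nexin-1 (SERPINE2). Coagulation starts when tissue factor (F3) binds factor VII, in a complex that TFPI inhibits, and thrombomodulin (THBD) redirects thrombin toward activation of protein C. Monocytes are a main source of tissue factor in blood, make PAI-2 in large amounts when stimulated, and carry the A subunit of factor XIII (F13A1), which cross-links fibrin. FGL2, or fibroleukin, is a fibrinogen-like protein described both as a prothrombinase and as a secreted immune regulator. SERPINA1 encodes alpha-1 antitrypsin, the main plasma inhibitor of neutrophil elastase.

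The libraries held between 11006035 and 13872810 counts. All 10 monocytic and myeloid marker genes examined had more than 3 counts in every library, and their summed level was between 2780 and 3327 CPM (counts scaled to a common library size) with DMSO and between 2473 and 3238 with WFA. The 4 erythroid markers had no count, and the megakaryocyte and platelet markers summed to at most 1.42 CPM. The hepatocyte markers summed to at most 0.805 CPM and the T cell markers to at most 0.50 CPM. The B cell markers summed to between 0.774 and 1.17 CPM with DMSO and between 1.30 and 1.85 CPM with WFA, without overlap. The 1 B cell marker that passed the filter on low counts was called higher in edgeR. The 4 endothelial markers summed to between 355 and 401 CPM with DMSO and between 304 and 326 CPM with WFA, without overlap and in the same direction as THBD, which endothelial cells also carry. PECAM1, which monocytes carry too, was the only endothelial marker to pass the filter on low counts, and it was lower with WFA (log2 fold change -0.28, edgeR adjusted p = 0.0149). Among the monocytic markers, 5 of 10 were lower and 1 was higher with WFA (edgeR's quasi-likelihood test, Benjamini-Hochberg adjusted p under 0.05), beside 24.7% and 25.8% of all genes tested. The rest were not called, and the summed level of the list overlapped between the groups. Whether a shift in these markers had a part in the values below was not tested. In bulk RNA, fewer cells of a kind and less RNA per cell cannot be told apart.

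With WFA, 5 of the 9 genes had all WFA libraries below all DMSO libraries, namely FGL2, SERPINB2, THBD, F3 and PLAU. PLAUR and TFPI showed the reverse. The groups overlapped for F13A1 and SERPINA1. Across the 12854 genes that passed the filter on low counts, 28.5% had all WFA libraries below all DMSO libraries and 29.6% the reverse. In edgeR's test 5 of the 8 genes that passed the filter were called lower and 2 higher, beside 24.7% and 25.8% of all genes tested, and those 7 stood beside 50.5% called in either direction. Past 2-fold lay FGL2, SERPINB2, THBD and F3 on the lower side and TFPI on the higher, where 5.20% and 8.11% of all tested genes lay. Nothing is read from these counts, since the genes were chosen on this contrast. SERPINA1 did not pass the filter, and TFPI passed it only through its WFA libraries, so a difference was built into its passing.

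**Figure D1:**
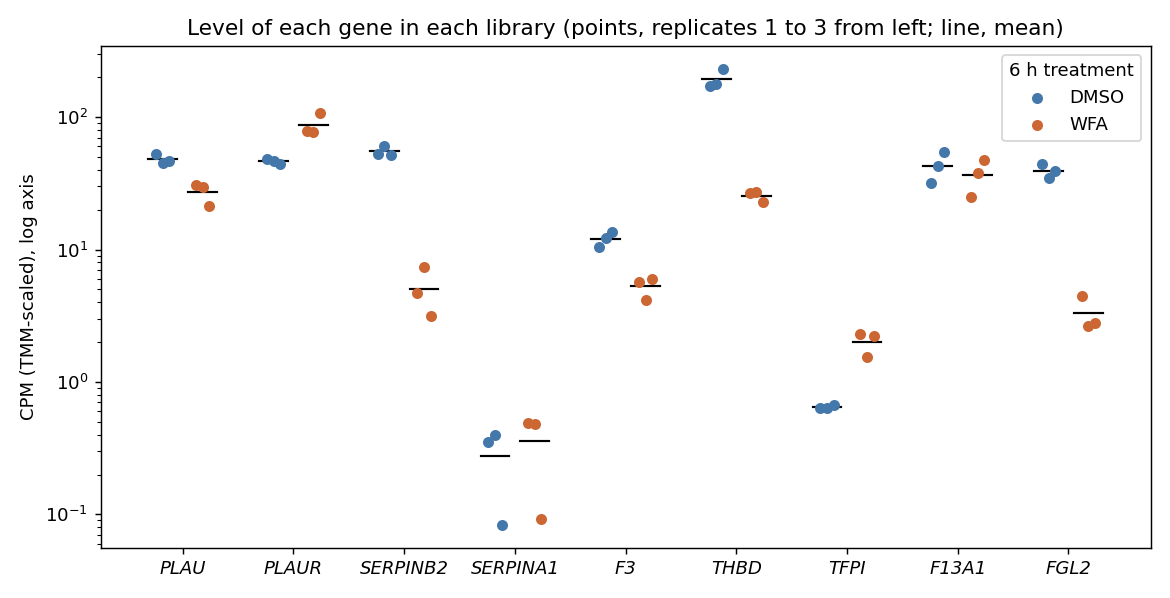
Level of each of the 9 genes in each library, in CPM scaled by the TMM method on a log axis, with blue points for DMSO, orange points for WFA and a line at the mean of 3. FGL2, SERPINB2 and THBD show the widest gaps between the groups, while the points of F13A1 and SERPINA1 overlap.

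The promoters of these genes were read to show what the sequence beside the start holds. RefSeq windows from 250 bases before to 50 after the start (GRCh38.p14) were at hand for 8 of the 9 genes, as 10 windows because PLAU and SERPINA1 have a pair each. THBD had none. The letters TGANTCA, the core that AP-1 (FOS and JUN) binds, were found on either strand in the windows of F3, FGL2, SERPINB2 and PLAUR, that is in 4 of 10 windows, while 7.71% of the 35116 windows of all genes hold them. The stretches below are shown because they place this shared motif, with the TGANTCA matches in capitals. From the windows of F3, FGL2 and SERPINB2, the bases next to the start that GENCODE 29 annotates as exon were cut off. For PLAUR that cut left too little, so 29 bases around its match are shown. These bases of PLAUR are themselves annotated as exon.
F3, chr1:94541801-94542009, minus strand: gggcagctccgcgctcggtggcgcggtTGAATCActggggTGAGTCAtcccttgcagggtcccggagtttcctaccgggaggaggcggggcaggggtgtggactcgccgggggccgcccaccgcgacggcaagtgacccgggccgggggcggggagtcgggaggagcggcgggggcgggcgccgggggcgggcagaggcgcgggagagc
FGL2, chr7:77199849-77200069, minus strand: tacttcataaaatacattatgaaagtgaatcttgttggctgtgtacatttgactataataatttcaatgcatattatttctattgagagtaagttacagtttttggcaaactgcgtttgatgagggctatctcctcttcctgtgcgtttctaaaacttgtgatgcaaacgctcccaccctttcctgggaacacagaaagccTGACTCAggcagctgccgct
SERPINB2, chr18:63887455-63887699, plus strand: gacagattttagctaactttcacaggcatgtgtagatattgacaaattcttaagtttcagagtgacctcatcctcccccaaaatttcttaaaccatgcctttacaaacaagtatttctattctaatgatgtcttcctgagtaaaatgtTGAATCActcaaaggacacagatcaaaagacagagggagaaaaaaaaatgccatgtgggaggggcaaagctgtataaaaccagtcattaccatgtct
PLAUR, chr19:43670338-43670366, minus strand: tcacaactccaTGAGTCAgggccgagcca

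Counted from the start of transcription, the 2 matches of F3 begin at -223 and -210, that of PLAUR at -186, that of SERPINB2 at -102 and that of FGL2 at -49. The motif was present in genes that were lower with WFA (F3, FGL2 and SERPINB2) and in PLAUR, which was higher. The letters TATAAA were found, on either strand, in 2 of 10 windows (F3 and SERPINB2) and in 11.5% of all windows. The core GAGGAA, to which PU.1 and other ETS factors bind, was found in 4 of 10 windows (PLAU, F13A1, SERPINA1 and TFPI). It was in 27.9% of all windows, and in none of the 4 genes with the AP-1 letters. The c-MYB cores AACGG or AACTG were found in 8 of 10 windows, from 7 of the 8 genes, F3 being the exception. They were also in 52.4% of all windows. TTNNGCAA, a C/EBP core, was found in 3 of 10 windows (FGL2, PLAU and PLAUR) and in 10.5% of all windows. TGACNNNGC, the core of the antioxidant response element that NRF2 binds, was found in 1 of 10 windows (PLAU) and in 13.3% of all windows. The heat shock element GAANNTTC, the E-box CACGTG and the cyclic AMP response element TGACGTCA were found in none of the members' windows, and in 6.77%, 7.26% and 1.85% of all windows. A match describes letters only, and the windows leave out distal elements.

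PLAU encodes urokinase, the protease at the head of the pathway, and lies on chr10:73909177-73917497 (GRCh38, GENCODE 29, plus strand). Its level was 52.8, 45.3 and 46.7 CPM in DMSO replicates 1, 2 and 3, and 30.6, 29.7 and 21.4 CPM in the WFA replicates. The groups did not overlap, and WFA replicate 3 was the lowest library. The mean went from 48.3 ± 4.0 to 27.3 ± 5.09 CPM (SD, n = 3 each), 56.5% of the DMSO mean, or -0.82 ± 0.13 (SE) as a log2 fold change. C10orf55 lies on the other strand and shares 916 exon bases with PLAU. Whether reads were counted by strand is not given in the sources used here. C10orf55 had at most 14 counts in a library, whereas PLAU had 230 or more.

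PLAUR encodes the urokinase receptor uPAR, a surface protein that gathers plasmin formation at the cell edge, and lies on chr19:43646095-43670547 (minus strand). It went the other way from its ligand. Its level was 48.3, 46.8 and 44.4 CPM in the DMSO replicates, the tightest group among the genes above 1 CPM, with an SD of 4.25% of the mean. It was 78.9, 77.7 and 107 CPM in the WFA replicates, all above the DMSO libraries, with replicate 3 set apart. The mean went from 46.5 ± 1.98 to 87.8 ± 16.4 CPM (SD, n = 3 each), 1.89-fold higher, or 0.91 ± 0.12 (SE) as a log2 fold change. Per kb of exon, the ratio of PLAUR to PLAU was 0.605, 0.684 and 0.630 in the DMSO replicates and 1.71, 1.73 and 3.30 in the WFA replicates. Receptor transcripts were thus below those of the ligand in each DMSO library and above them in each WFA library. That crossing depends on the length used, because with the longest transcript of each gene the mean PLAUR level already exceeded that of PLAU with DMSO, at 28.9 against 18.2 CPM per kb.

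SERPINB2 encodes PAI-2, an inhibitor of urokinase that stays largely inside monocytes, and lies on chr18:63871692-63903890 (plus strand) in the cluster of clade B serpins. Its level was 52.4, 60.9 and 51.9 CPM in the DMSO replicates and 4.66, 7.33 and 3.16 CPM in the WFA replicates. The lowest DMSO library stood far above the highest WFA library. The mean went from 55.1 ± 5.05 to 5.05 ± 2.11 CPM (SD, n = 3 each), 10.9-fold lower, or -3.43 ± 0.19 (SE) as a log2 fold change. Only 3 of the 12854 tested genes had a lower log2 fold change. Relative to the mean, the WFA libraries spread more than the DMSO libraries, with SDs of 41.8% and 9.16%, and their raw counts were 57, 91 and 34. SERPINB10, which shares 547 exon bases with SERPINB2 on the same strand in GENCODE 29, had 310, 349 and 230 counts with DMSO and 143, 218 and 83 with WFA. How reads in the shared bases were assigned is not given in the sources used here.

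SERPINE2, which also inhibits urokinase, went the other way. It rose from 9.16 ± 1.90 to 14.8 ± 1.94 CPM (SD, n = 3 each), which on the log2 scale was 0.69 ± 0.17 (SE, edgeR adjusted p = 0.00336). Per kb of exon and with DMSO, SERPINB2 held 95.0% ± 1.31 (SD, n = 3) of the summed level of SERPINB2 and SERPINE2. The sum was lower with WFA. Per kb of exon it was 20.3, 23.0 and 19.9 CPM in the DMSO replicates and 3.43, 4.09 and 2.99 CPM in the WFA replicates. The share of SERPINB2 was 49.4%, 65.2% and 38.5% in the WFA replicates. The ratio of PLAU to this sum was 0.882, 0.669 and 0.793 with DMSO and 3.03, 2.46 and 2.42 with WFA. It was above 1 in each WFA library, although PLAU itself was lower there. The shares and ratios depend on the lengths used, and no other length was tried for SERPINE2. In CPM without a length, SERPINB2 averaged 55.1 with DMSO and 5.05 with WFA, and SERPINE2 averaged 9.16 and 14.8. The sum leaves out other inhibitors of urokinase, these are ratios of transcripts, and no protein or plasmin activity was measured in the libraries.

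**Figure D2:**
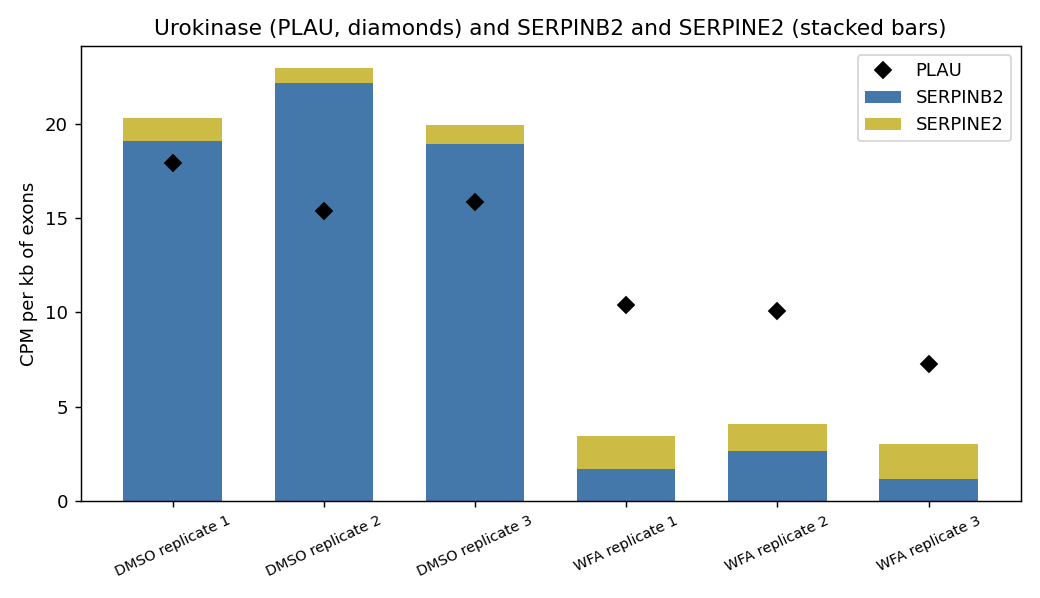
Stacked bars give the levels of SERPINB2 and SERPINE2 in each library and diamonds that of PLAU, in CPM per kb of exon. The bars reach 19.9 to 23.0 with DMSO and 2.99 to 4.09 with WFA, and the diamonds sit inside the bars with DMSO and above them with WFA.

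SERPINA1, on chr14:94376747-94390693 (minus strand), was near the limit of what these libraries can show. It had 5, 5 and 1 counts in the DMSO replicates and 6, 6 and 1 in the WFA replicates. Replicate 3 had the fewest counts in both groups, and the groups overlapped. Its mean was 0.277 ± 0.169 CPM with DMSO and 0.355 ± 0.227 with WFA (SD, n = 3 each), so a difference was not detectable at this depth.

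F3 encodes tissue factor, the trigger of coagulation, and lies on chr1:94529225-94541800 (minus strand). Its level was 10.4, 12.2 and 13.7 CPM in the DMSO replicates and 5.72, 4.19 and 5.96 CPM in the WFA replicates, with no overlap. On average it went from 12.1 ± 1.63 to 5.29 ± 0.959 CPM (SD, n = 3 each), 2.28-fold lower, or -1.19 ± 0.18 (SE) as a log2 fold change.

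TFPI, the inhibitor of the tissue factor and factor VII complex, lies on chr2:187464230-187565760 (minus strand) and was the scarcest of the 8 genes that passed the filter. It had 9, 8 and 8 counts in the DMSO replicates and 28, 19 and 24 in the WFA replicates. The 3 DMSO libraries were nearly alike at 0.633, 0.632 and 0.667 CPM, and the WFA libraries were at 2.29, 1.53 and 2.23 CPM. The mean was 3.13-fold higher with WFA, or 1.63 ± 0.32 (SE) as a log2 fold change. The antisense gene AC007319.1, for which no value was analysed here, shares 118 exon bases with it. The ratio of TFPI to F3, per kb of exon, was between 0.0120 and 0.0149 with DMSO and between 0.0897 and 0.0982 with WFA. Thus the initiator was lower and its inhibitor higher in each WFA library, yet F3 remained the more abundant transcript throughout.

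THBD encodes thrombomodulin, the thrombin receptor that starts the protein C anticoagulant pathway, and is a gene of 1 annotated transcript on chr20:23045633-23049741 (minus strand). Its level was 172, 179 and 232 CPM in the DMSO replicates, the highest of the 9 genes. It was 26.6, 27.1 and 22.9 CPM in the WFA replicates, a group with an SD of only 9.08% of its mean. Its mean went from 194 ± 32.9 to 25.6 ± 2.32 CPM (SD, n = 3 each), 7.60-fold lower, or -2.92 ± 0.12 (SE) as a log2 fold change, which ranked it 14 from the lowest of the tested genes. Because THBD was lower by more than F3, the ratio of THBD to F3 per kb of exon was 11.5, 10.3 and 11.9 with DMSO and 3.26, 4.53 and 2.69 with WFA. CD93, a relative of thrombomodulin in the same lectin family and located 29607 bases away, fell from 395 ± 41.0 to 132 ± 14.2 CPM (SD, n = 3 each), which on the log2 scale was -1.58 ± 0.10 (SE, edgeR adjusted p = 1.61e-08).

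F13A1 encodes the catalytic A subunit of factor XIII and lies on chr6:6144085-6321013 (minus strand). Its level was 31.6, 43.0 and 54.7 CPM in the DMSO replicates and 24.9, 37.9 and 47.5 CPM in the WFA replicates. The groups overlapped, and replicate 3 was the highest and replicate 1 the lowest in both. The mean went from 43.1 ± 11.5 to 36.7 ± 11.3 CPM (SD, n = 3 each), or -0.23 ± 0.20 (SE) as a log2 fold change. Within pairs of same-numbered libraries the log2 ratio was -0.34, -0.18 and -0.20. With the replicate number as a block the log2 fold change was -0.24 and its standard error 0.10, and F13A1 was then called lower in edgeR, as it was not without the block. In that fit 8 of the 8 genes were called, beside 59.0% of all genes tested. In the fit without the block, the log2 fold change was -0.01 without WFA replicate 1 and -0.02 without DMSO replicate 3. It was -0.45 without WFA replicate 3 and -0.41 without DMSO replicate 1. Each of these fits left 1 library without its pair, so differences between experiments enter the value.

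FGL2 lies on chr7:77193371-77199848 (minus strand), inside CCDC146 on the other strand. Its level was 44.0, 34.5 and 39.5 CPM in the DMSO replicates and 4.49, 2.66 and 2.79 CPM in the WFA replicates. In counts this was 626, 437 and 474 against 55, 33 and 30. The average went from 39.3 ± 4.76 to 3.31 ± 1.02 CPM (SD, n = 3 each), 11.9-fold lower, or -3.56 ± 0.18 (SE) as a log2 fold change. Of the 12854 tested genes only 1 had a lower log2 fold change. CCDC146 shares no exon base with FGL2 and had between 15 and 33 counts in each library, a log2 fold change of -0.26 ± 0.30 (SE, edgeR adjusted p = 0.494).

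**Figure D3:**
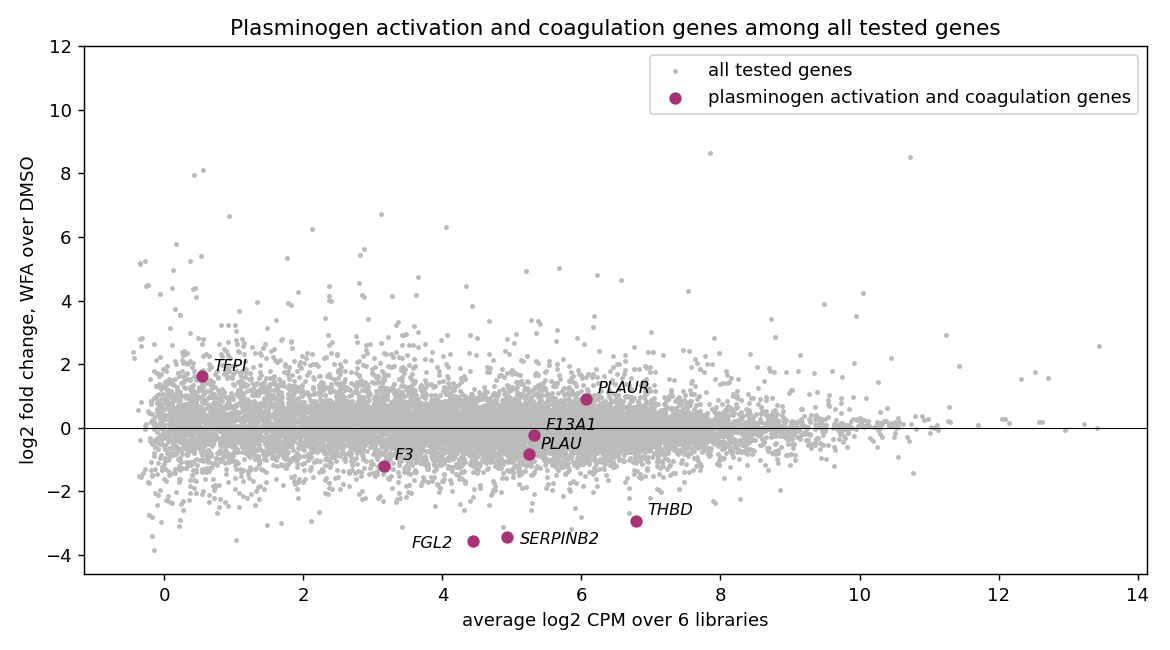
The log2 fold change of WFA over DMSO is plotted against the average log2 CPM for the 12854 tested genes in grey and the 8 tested plasminogen activation and coagulation genes in purple. FGL2, SERPINB2 and THBD lie at the lower edge of the cloud, at -3.56, -3.43 and -2.92, while F13A1 lies within it.

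The pairs of same-numbered libraries differed in the size of the difference. The pair of replicate 3 had the widest log2 ratio for PLAU (-1.12), PLAUR (1.26), SERPINB2 (-4.04), THBD (-3.34) and FGL2 (-3.82). For F3 the widest was in replicate 2 (-1.54) and for TFPI in replicate 1 (1.85). The narrowest ratios for those genes were -0.61 for PLAU, 0.71 for PLAUR, -3.05 for SERPINB2, -2.69 for THBD, -3.29 for FGL2, -0.86 for F3 and 1.28 for TFPI. Each of these genes kept its sign in all 3 pairs.

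**Figure D4:**
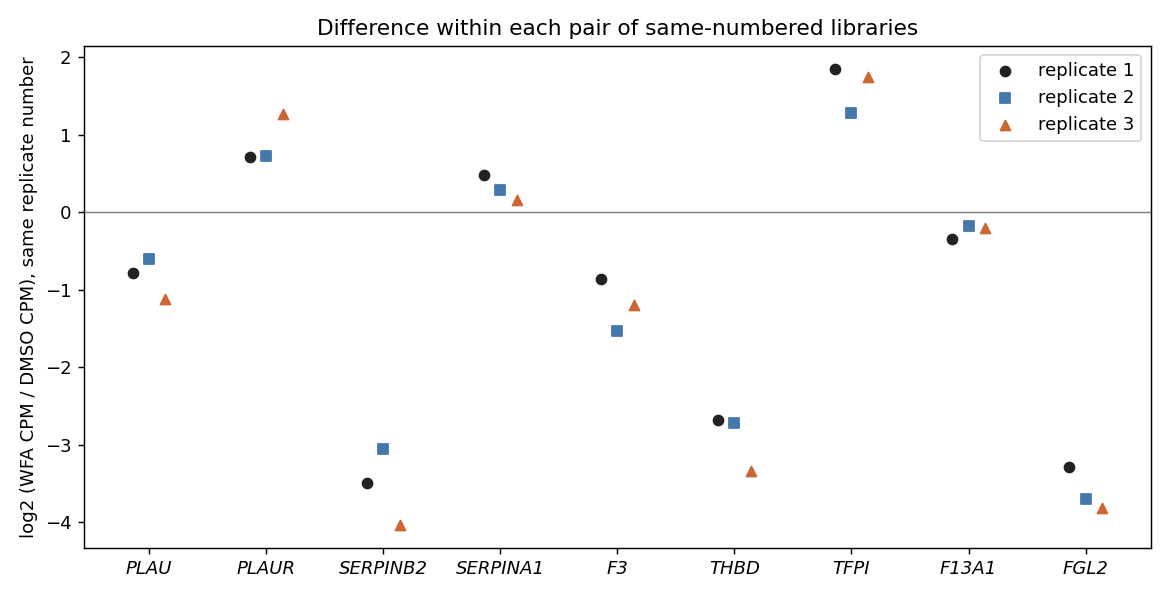
Log2 ratio of WFA to DMSO CPM within each of the 3 pairs of same-numbered libraries, for each of the 9 genes. Circles, squares and triangles stand for replicates 1, 2 and 3, and the triangles are farthest from 0 for PLAU, PLAUR, SERPINB2, THBD and FGL2.

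Levels were compared between the genes per kb of the union of their annotated exons. With DMSO, THBD was the most abundant at 47.3 ± 8.0 CPM per kb (SD, n = 3 for each value here), followed by SERPINB2 at 20.0 ± 1.84, PLAU at 16.4 ± 1.36, PLAUR at 10.4 ± 0.443, F13A1 at 9.18 ± 2.46, FGL2 at 8.55 ± 1.03 and F3 at 4.20 ± 0.566. SERPINA1 (0.0564 ± 0.0344) and TFPI (0.0550 ± 0.00168) came last. The libraries of F13A1 overlapped those of PLAUR above it and FGL2 below it, and those of SERPINA1 overlapped TFPI, while other neighbours in this order did not overlap. With WFA the order was PLAUR at 19.7 ± 3.67, PLAU at 9.24 ± 1.72, F13A1 at 7.83 ± 2.41 and THBD at 6.22 ± 0.565. F3 (1.84 ± 0.334) and SERPINB2 (1.84 ± 0.768) were level with each other, and FGL2 (0.720 ± 0.222), TFPI (0.172 ± 0.0361) and SERPINA1 (0.0725 ± 0.0464) followed. The libraries of F13A1 overlapped those of PLAU and THBD on either side. THBD and SERPINB2, the leading pair with DMSO, thus came after PLAUR, PLAU and F13A1 with WFA. The order depends on the length used, since per kb of its longest transcript PLAUR was at 28.9 CPM with DMSO, above SERPINB2 at 25.6.

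The genes nearest to each of these in profile over the 6 libraries were sought by the Euclidean distance between log2 CPM values, with 0.5 CPM added and each gene centered on its DMSO mean. FGL2 lay nearest to SERPINB2 (1.07) and THBD (1.11), and next to CYP1B1 (1.29), where the median distance to all tested genes was 5.98. SERPINB2 lay nearest to KIT (0.85), FGL2 (1.07) and ALDH1B1 (1.08). THBD lay nearest to ALDH1B1 (0.52), GFI1 (0.54) and NAV3 (0.54). For PLAUR the nearest were ZNF76 (0.11), CD2BP2 (0.11) and PRKD2 (0.16), and for PLAU they were DDX11-AS1 (0.10), SPIN4 (0.15) and GNB5 (0.15). For F3 they were MAML3 (0.13), OAS1 (0.21) and NEXN (0.26), for TFPI they were PMEPA1 (0.14), USP30 (0.15) and STX3 (0.17), and for F13A1 they were LTB4R2 (0.27), DPY19L1P1 (0.27) and USH1C (0.28). With 2 groups of 3 libraries, a small distance mostly reflects a like difference between the groups on this scale. The added 0.5 CPM shrinks the differences of scarce genes. The neighbours of TFPI, whose log2 fold change was 1.63, were thus at 1.25, 1.16 and 1.12.

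Other genes of the same pathways, from 4 lists drawn up by function, numbered 87, and 38 of them passed the filter. Of these 9 were higher, 9 were lower and 20 were not called in edgeR's test, with a median log2 fold change of 0.04, beside 0.02 for all tested genes. The 18 called genes stood beside 50.5% called among all genes tested. Of the 49 that did not pass, 27 had no count in any library, including plasminogen itself (PLG), factors VII, IX and X (F7, F9 and F10) and the 3 fibrinogen chains, and PLAT, the other plasminogen activator, had at most 3 counts. Transcripts of urokinase, its receptor and tissue factor were thus measured in libraries where plasminogen and factor VII, which they act on or bind, had no count.

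Of the 9 tested genes on the plasminogen activation list, 4 were higher, 0 were lower in edgeR (0 at an unadjusted p under 0.05) and the median log2 fold change was 0.39, beside 25.8% higher and 24.7% lower among all genes tested. Without WFA replicate 3 that median was 0.11. Beside SERPINE2 these were S100A10 and ANXA2, the subunits of the plasminogen receptor annexin A2 heterotetramer, and SERPINI1, encoding neuroserpin (log2 fold change 0.50, edgeR adjusted p = 0.0448). The groups of SERPINI1 overlapped, and its call was lost in 7 of 14 alternatives, among them DESeq2 and leaving out DMSO replicate 2 (0.35), DMSO replicate 3 (0.47), WFA replicate 1 (0.33) or WFA replicate 3 (0.46). S100A10 had 100.1, 74.4 and 139 CPM in the DMSO replicates and 259, 195 and 379 CPM in the WFA replicates, a log2 fold change of 1.41 ± 0.22 (SE, edgeR adjusted p = 7.47e-05). ANXA2 rose by less, a log2 fold change of 0.39 ± 0.13 (SE, edgeR adjusted p = 0.0238). The call of ANXA2 was lost without DMSO replicate 2 (0.31), WFA replicate 1 (0.33) or WFA replicate 3 (0.26), or when total counts replaced TMM (0.30), and 2 genes of the list were called higher in each of these cases. Of the 15 tested genes on the coagulation list, 3 were higher and 3 lower, beside 25.8% and 24.7% of all genes tested. Their median was 0.10. It was 0.26 with DESeq2, which was run without the filter on low counts, and also 0.26 in edgeR without that filter. With DESeq2's size factors in edgeR on the filtered genes it was 0.09. It was 0.02 when total counts replaced TMM, and 0.06 without DMSO replicate 2 or WFA replicate 3. F2RL3, the thrombin receptor PAR4, fell from 22, 19 and 17 counts to 3, 2 and 5, a log2 fold change of -2.36 ± 0.41 (SE, edgeR adjusted p = 0.000235). It passed the filter only through its DMSO libraries, so a difference was built into its passing. VKORC1L1, a vitamin K epoxide reductase, fell (log2 fold change -0.62, SE 0.09, edgeR adjusted p = 2.97e-05). ANXA5, which binds exposed phosphatidylserine, rose with 0.57 (SE 0.09, edgeR adjusted p = 8.86e-05). The clotting cofactor F8 (0.52) and the vitamin K epoxide reductase VKORC1 (0.35) rose, and the scramblase ANO6 (-0.27) fell, with edgeR adjusted p = 0.00657, 0.0309 and 0.0162. The call of VKORC1 was lost in 5 of 14 alternatives, with DESeq2, with total counts and without DMSO replicate 3 (0.23), WFA replicate 2 (0.30) or WFA replicate 3 (0.33), and that of ANO6 in 1, without DMSO replicate 3 (-0.22).

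Of the 9 tested genes on the list of other serpins, 4 were lower and 1 was higher, beside 24.7% and 25.8% of all genes tested. Their median was -0.20, and -0.12 without WFA replicate 3. Without DMSO replicate 3 or WFA replicate 3 only 2 were called lower. All 4 that were lower belong to clade B, as SERPINB2 does, and SERPINB10 and SERPINB8 lie beside it on chromosome 18. SERPINB1, also of clade B, was not called (log2 fold change -0.20, edgeR adjusted p = 0.104), and its groups overlapped. SERPINB10 fell (log2 fold change -0.88, SE 0.22, edgeR adjusted p = 0.00359) and SERPINB8 with -0.64 (SE 0.08, edgeR adjusted p = 1.48e-05), both smaller than the difference of SERPINB2. The calls of SERPINB6 (-0.28) and SERPINB9 (-0.77) were close to the threshold, with edgeR adjusted p = 0.0436 and 0.0498. SERPINB6 lost its call in 8 of 14 alternatives, including each left-out library. SERPINB9, whose groups overlapped, lost it in 6, and its value was -0.43 without DMSO replicate 3, -0.48 without WFA replicate 3 and -0.79 without WFA replicate 2, against -1.11 without WFA replicate 1. SERPINH1, the collagen chaperone HSP47, which inhibits no protease, was the serpin that rose, a log2 fold change of 3.88 ± 0.14 (SE, edgeR adjusted p = 3.23e-11). Among 5 tested structural relatives of the 9 genes, CD59, of the uPAR protein family, rose (log2 fold change 1.01, SE 0.13, edgeR adjusted p = 1.48e-05). The transglutaminase TGM5 fell with -2.02 (SE 0.17, edgeR adjusted p = 2.48e-07), and CD93 is given above beside THBD.

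**Figure D5:**
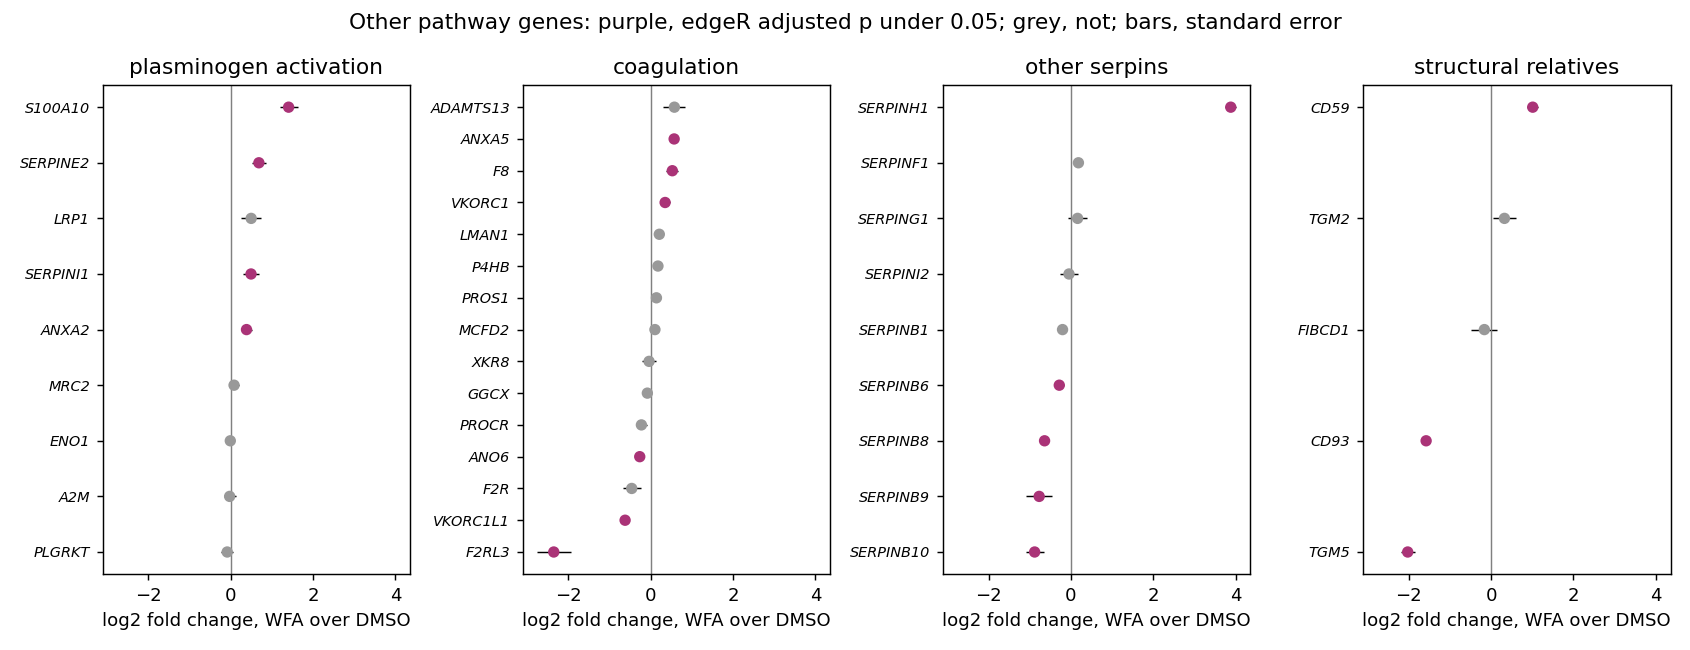
Log2 fold change of WFA over DMSO for the 38 tested genes on the 4 lists of other pathway genes, with bars of 1 standard error and purple points for an edgeR adjusted p under 0.05. S100A10 and SERPINE2 lead the plasminogen activation list at 1.41 and 0.69, and the clade B serpins lie below 0.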

How the data were processed

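RNA of 6 THP1 libraries was sequenced by the authors after Illumina TruSeq preparation. The submitters' processing notes name bcl2fastq 2.19, Trimmomatic, Bowtie2, Picard, featureCounts and DESeq2 and the build hg38, without roles. Annotation, strand setting and the handling of multiply mapped reads are not given in the sources used here. The authors deposited raw counts per gene symbol, which were used here, and a scaled score per library (count over a size factor, rounded), which was not. Their columns of fold changes and p-values for the comparison were not used.

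Counts were analyzed with edgeR 4.0.16 in R 4.3.3 (TMM, filterByExpr with a minimum count of 10, quasi-likelihood test, Benjamini-Hochberg adjustment over all 12854 tested genes, threshold 0.05), tested on simulated data. CPM uses the TMM-scaled library sizes, and standard errors are the log2 fold change over the square root of F. Replicates of a group differed by more than counting noise (chi-square per gene 5.92 to 10.9). Replicate numbers mark independent experiments, and deviations of same-numbered libraries from their group means correlated at 0.25, 0.38 and 0.27 (other pairings -0.30 to 0.02). An exact permutation test of 3 against 3 libraries cannot go below p = 0.1. Coordinates and exon lengths are from GENCODE 29 (GRCh38), promoters from RefSeq (GRCh38.p14).

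The members, lists and motifs were chosen with earlier results of these data known. Named genes are the members, up to 4 called genes with the smallest p per list and direction, and the 3 nearest profiles per member. Marker genes, overlapping or nearby genes, SERPINB1 and genes without counts are named outside this rule, after their values were seen. Alternatives were the replicate block, DESeq2 1.42.0, other scalings and filters, a robust fit, longest-transcript lengths and leaving out each library. Total counts of 11006035 to 13872810 per library set the precision. Some genes of these lists are not reported here.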

Additional observations from a re-analysis of the deposited data

How the results depend on the processing

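With the replicate number as a block, 3877 genes were higher and 3708 lower, beside 3311 and 3178 without it. Of the other pathway genes, 12 were higher and 11 lower with the block, beside 9 and 9. Among the 9 genes described, the block changed the call of F13A1 alone. With each library left out, the genes called numbered 2942 to 3176 higher and 2815 to 3016 lower, and the pathway genes 7 to 9 higher and 6 to 8 lower. None of the 8 tested genes changed sign under the 14 alternatives. Without WFA replicate 1, FGL2 was at -3.85. TFPI did not pass a minimum count of 50. Of 18 called pathway genes, 12 stayed past the threshold under each alternative that tested them. SERPINI1, ANXA2, VKORC1, ANO6, SERPINB6 and SERPINB9 did not. With the block each of these was called, beside 59.0% of all genes tested. In that order their edgeR adjusted p with the block was 0.00119, 1.59e-05, 0.0018, 0.0020, 0.0233 and 0.000369. The last is of SERPINB9, which was at 4.71, 4.82 and 8.67 CPM in DMSO replicates 1, 2 and 3. In the WFA replicates it was at 4.98, 3.62 and 1.86 CPM, so it was higher with WFA in replicate 1. A small p with the block thus does not mean that the same-numbered pairs were alike in direction or size. The fits with a library left out had no block, so each left 1 library without its pair. The genes called higher on the plasminogen activation list went from 4 to 2 when total counts replaced TMM and without DMSO replicate 2, WFA replicate 1 or WFA replicate 3. The serpins called lower went from 4 to 2 without DMSO or WFA replicate 3, and those called higher from 1 to 2 with the block. The causes were not tested. With the longest transcript as the length, PLAUR was at 28.9 CPM per kb with DMSO in place of 10.4. Counting error limits SERPINA1 and TFPI most.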
